A study of Mus musculus with 8 samples.

Results

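The genes of the cytosolic ribosomal proteins were compared between hippocampi of the mouse strains BTBR and B6. They were found by the gene name on the array (Rpl or Rps with a number, Rplp0, Rplp1, Rplp2 and Rpsa, without the S6 kinases), which gave 83 of 27373 gene names and 143 of 41174 non-control probes. All 83 names matched a gene of the RefSeq list of assembly GRCm38.p6. The samples were whole hippocampi of 4 BTBR (BTBR T+ Itpr3tf/J) and 4 B6 (C57BL/6J, wild type) males, all 5 months old and without drug treatment, with 1 mouse per array. BTBR is an inbred strain used as a mouse model of autism, and B6 is another inbred strain, so that the comparison holds every genetic difference between the strains and no single allele. RNA labeled with Cy3 was hybridized to single-color Agilent arrays, and the 8 arrays sat on 2 slides that each held 2 arrays of either strain. Values are log2 spot intensities after background subtraction and quantile normalization, called levels below, and a difference is the mean of BTBR minus the mean of B6 on that scale. A level depends on the probe as well as on its RNA, so differences are taken only between arrays at the same probe, and a summary of levels over probes describes the brightness of those probes and not the abundance of their mRNAs.

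Ribosomal proteins assemble with ribosomal RNA in the nucleolus into a small subunit, which reads the mRNA, and a large subunit, which joins amino acids. Their mRNAs are among the most abundant of the cell and mostly begin with a run of pyrimidines, the TOP motif, through which the mTOR kinase and Larp1 govern their translation. In hippocampal neurons protein synthesis near synapses is known to be needed for lasting plasticity. The genes have many processed copies in the genome, and RefSeq lists 319 numbered pseudogene symbols for 63 of the 83 genes. Binding of such transcripts to the probes was not tested.

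The 10 probes called between the strains are shown by their last 30 bases, as the array files give them, with the letters AATAAA in capitals. These letters are the usual signal for the end of an mRNA, and they were searched on the strand of the probe only.
Rpl14 A_51_P232858: gttaaccctaacaAATAAAtttcccaccaa
Rpl29 A_52_P326158: gggtcgcaaagatacgaatctcttaagggg
Rps4y2 A_51_P406105: aggggcgtttacgtttgtttatacttaaaa
Rpsa A_52_P372165: gaacaaagttaatgctaaaaagttaatgcc
Rpsa A_51_P439092: ccttgacgtcctgcagatgaaggaggagga
Rpl5 A_52_P82305: gaagttaaagtgtgtaagtacacagtaaat
Rps6 A_52_P531325: tctacagtggatttaaatggtctgaatccc
Rps13 A_51_P327469: taaatgctgttgtgtgcacaagcAATAAAa
Rps9 A_52_P564908: tgtgagcttacccttgagggttcagaatcg
Rps20 A_52_P142346: aacctcattcttcttaactattttgtaggc
The letters were found in the whole 60 bases of 18 of the 143 probes (12.6%), against 4.78% of all probes, and in 2 of the 10 probes shown, those of Rpl14 and Rps13.

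The start sites were examined for pyrimidine runs, which the choice by name did not use. RefSeq promoter sequences of GRCm38.p6 were at hand for 62 of the 83 genes. A run of at least 8 bases that are each C or T lay between 10 bases before and 20 bases after the start in 21 of them (33.9%), against 11.2% of 27025 genes. The windows of 4 genes described below are given with their longest such run in capitals, to show a long run (Rpl14 and Rps6) and its absence (Rpsa and Rpl5). They lie at chr9:120571507-120571536 (Rpl14, plus strand), chr4:86857348-86857377 (Rps6, minus strand), chr9:120127756-120127785 (Rpsa, plus strand) and chr5:107900518-107900547 (Rpl5, plus strand).
Rpl14: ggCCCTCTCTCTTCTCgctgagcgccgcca
Rps6: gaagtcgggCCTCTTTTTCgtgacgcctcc
Rpsa: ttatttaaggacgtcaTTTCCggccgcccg
Rpl5: cgtcgCTTgcgtgctggtggtgctacatac
Of these, Rpl14, with a run, and Rpl5 and Rpsa, without one, each had a called probe that was above background on all 8 arrays. The probe at the Rps6 gene itself did not pass the test.

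Of the 143 probes, 138 (82 genes) passed the filter on dim probes, which asked that the scanning software find the signal well above background on 75% or more of 1 strain's arrays. The 5 others included both probes of Rpl39l, a testis-enriched paralog of Rpl39, and 1 probe each of Rps19 and Rps2. Their values lay between 7.46 and 8.13 on every array, and of these 5 probes a single one was above background on any array, in 1 BTBR mouse. No probe of the family was saturated. The median level of the tested probes was 16.01. Probes of these genes also varied little between mice. The median standard deviation within a strain was 0.0865, against 0.132 over all tested probes. These groups are not matched for brightness, since 71% of the family's tested probes had a level of 14 or more, against 9.16% of all tested probes. The spread at equal level is not given here.

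Between the strains most of the family differed little. The median difference of the 138 probes was 0.0048, beside 0.011 for all 27982 tested probes, with 75 probes higher and 63 lower in BTBR. The difference was under 0.25 in size at 124 probes (89.9%), against 80.3% of all tested probes, and its median size was 0.065 against 0.101. It reached 1 or more in size, a 2-fold change, at 4 probes, against 1.65% of all tested probes. With limma over all tested probes, 10 probes of 9 genes passed an adjusted p of 0.05, which is 7.25% of the family and is set against 7.67% of all tested probes. Among them 2 probes were higher in BTBR, where all tested probes gave 3.33%, and 8 were lower (5.8% of the family, against 4.33% of all tested probes). The rank product, the kind of test the study used, with a call at a proportion of false positives (pfp) of 0.05 or less, called 6 of the 10 (3.91% of all tested probes were called), and neither of the 2 higher probes was among them. With 1 value per gene, the median over its probes was called in 7 of 82 genes (7.77% of all gene names) and the probe with the highest level in 4 of 82 (7.9% of all gene names). Among the 7 medians are those of Rpsa and Rps6, which each draw on a dim probe that passed the filter through B6 alone. The arrays of the strains did not overlap at 23 probes (16.7%), against 14.2% of all tested probes. The shares differed with probe brightness, split here at a level of 14, a boundary picked with the values in view. At 14 or more, 2 of 98 probes of the family were called (2.04%, against 4.96% of all such probes). Under 14 there were 8 of 40 (20%, against 7.94%), among them the lower Rpsa and second Rps6 probes described below, which entered through B6 alone. The difference was under 0.25 in size at 95.9% of the family's probes at 14 or more (85.2% of all such probes) and at 75% of those under 14 (79.9%). No test was made of these shares, since probes of the same arrays are not replicates.

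**Figure D1:**
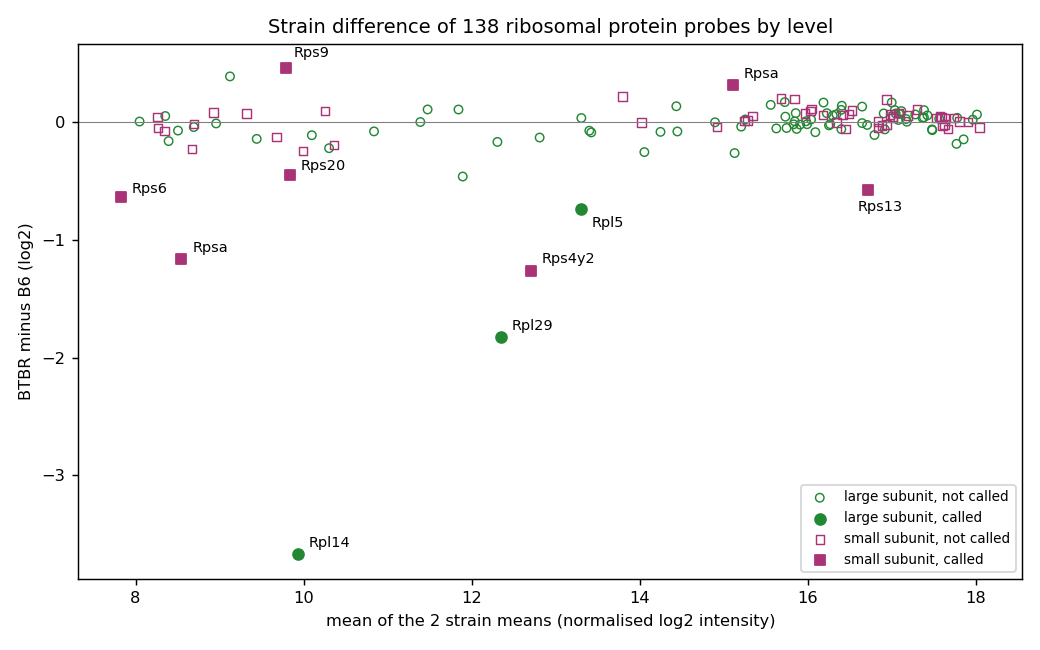
Strain difference (BTBR minus B6, log2) of the 138 tested ribosomal protein probes against the mean of the strain means (normalized log2 intensity), with filled symbols for the 10 probes called by limma and shape for the subunit. Most probes lie near 0, Rpl14 lies lowest at -3.67, and Rps9 and a probe of Rpsa are the called probes above 0.

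Rpl14, a protein of the large subunit, had the largest difference of the family. Its only probe, at chr9:120483689-120483748 (mm9, plus strand), gave 11.81, 11.73, 11.76 and 11.79 in the B6 mice. In the BTBR mice it gave 8.08, 8.08, 8.10 and 8.13. The levels of the strains were far apart and each strain was tight, and the signal was above background on all 8 arrays. The difference was -3.67 ± 0.05 (SE, n = 4 per strain, limma adjusted p = 2e-09). Rpl14 has no other probe on the array, so whether the rest of its transcript differed was not measured.

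Rpl29, a basic protein of the large subunit, has 4 probes with different results. The probe at chr9:106332644-106332703 (mm9, plus strand) gave 13.36, 13.36, 13.19 and 13.16 in B6. In BTBR it gave 11.21, 11.77, 11.40 and 11.39. It fell by 1.83 ± 0.12 (SE, n = 4 per strain, limma adjusted p = 1.7e-05), while the other 3 probes differed by -0.09, 0.39 and -0.17 with adjusted p of 0.556, 0.68 and 0.645. Set against the mean of its gene's other probes on the same array, the called probe was lower in BTBR as well (-1.87 ± 0.13, limma adjusted p = 6.1e-06). The value of 0.39 rested on 1 mouse, BTBR 3, whose level was 10.71 against 8.71 to 8.95 in the other BTBR mice, and without it the difference was -0.08.

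The sequences of the 4 Rpl29 probes are given whole, because they form 2 pairs that overlap in the genome. Capitals mark the longest run that a probe shares with its neighbor.
Rpl29 A_51_P400137: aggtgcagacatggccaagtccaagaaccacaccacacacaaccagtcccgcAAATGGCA
Rpl29 A_52_P326158: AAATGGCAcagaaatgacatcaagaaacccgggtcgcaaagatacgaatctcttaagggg
Rpl29 A_52_P505977: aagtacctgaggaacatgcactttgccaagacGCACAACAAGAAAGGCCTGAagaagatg
Rpl29 A_52_P217069: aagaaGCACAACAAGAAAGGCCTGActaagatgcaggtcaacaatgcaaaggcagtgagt
The called probe begins with the last 8 bases of the probe that differed by -0.09. The other pair overlaps by 33 positions in the coordinates of the files (chr9:106333436-106333468, mm9), and at 3 of these positions the printed letters of the probes differ from each other.

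Rpl5 and Rpl11 bind 5S ribosomal RNA and, when ribosome assembly fails, the p53 regulator Mdm2. The Rpl5 probe at chr5:108337918-108337977 (mm9, plus strand) gave 13.72, 13.68, 13.66 and 13.65 in B6. It gave 12.74, 12.92, 13.06 and 13.02 in BTBR. Every BTBR mouse lay below every B6 mouse, and the difference was -0.74 ± 0.08 (SE, n = 4 per strain, limma adjusted p = 0.000384). The other Rpl5 probe, 4150 bases upstream, differed by -0.11 (limma adjusted p = 0.512), and the contrast between the 2 probes was called (limma adjusted p = 0.00227). Neither Rpl11 probe was called, with differences of 0.03 and -0.11.

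Rpsa, the small subunit protein also known as the laminin receptor, had 2 probes with different results. The probe at chr9:120037589-120037648 (mm9, plus strand) gave 14.90, 15.07, 15.01 and 14.85 in B6. It gave 15.32, 15.32, 15.23 and 15.20 in BTBR. This probe was higher in BTBR by 0.31 ± 0.07 (SE, n = 4 per strain, limma adjusted p = 0.0275), with no overlap between the strains. The probe 3318 bases downstream, at chr9:120040967-120041026, gave 9.47, 9.14, 8.98 and 8.92 in B6. It gave 7.93, 7.82, 8.11 and 7.98 in BTBR, where 2 of 4 arrays were above background. Here the means differed by -1.17 at a probe that passed the filter through B6 alone, so its call by limma is no separate evidence of a difference, and other signals gave other sizes, -3.20 (the software's processed signal) and -0.79 (the deposited matrix). The contrast of the 2 probes rests on this dim probe too. The call of the higher probe was lost when B6 1, B6 3, B6 4, BTBR 1 or BTBR 2 was left out (limma adjusted p = 0.0621 to 0.0843).

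Rps4y2 is the array's name for a probe with the accession NR_003634, which RefSeq now calls Rps4l and lists as a transcribed pseudogene. The probe was printed in 10 spots, so each value is a median over spots. It gave 13.33, 13.28, 13.47 and 13.28 in B6. It gave 11.65, 12.05, 12.24 and 12.38 in BTBR. All BTBR mice were lower and they also spread more widely, and the difference was -1.26 ± 0.14 (SE, n = 4 per strain, limma adjusted p = 0.000663).

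Rps6 is the small subunit protein that the S6 kinases phosphorylate after neuronal activity. Its probe at chr4:86501886-86502077 (mm9, minus strand) differed by -0.04 ± 0.08 (SE, n = 4 per strain, limma adjusted p = 0.842). A second probe that the array names Rps6, with the accession AK013825, lies at chr4:86483199-86483258, 18627 bases farther downstream and among probes that the array names Dennd4c. It gave 8.16, 8.26, 8.19 and 7.98 in B6. It gave 7.48, 7.45, 7.61 and 7.51 in BTBR, where no array was well above background. It passed the filter through B6 alone, so the size of the difference is not known. With a floor put under the BTBR signal, B6 was 1.38-fold higher on the scale used here, which is not a strict minimum. Its call by limma had this filter behind it as well. The 1.38-fold ratio does not carry over to other scales, since the deposited matrix gave a smaller difference of -0.32 on the log2 scale. The ratio is the mean of B6 over, for each BTBR array, the lowest signal called above background or the probe's own signal if that was higher. On BTBR 1 and BTBR 3 it was the probe's own signal. In B6 the probe was above background on 3 of 4 arrays. The strand of the second probe and of the Dennd4c probes is opposite, and of the 3 tested Dennd4c probes 1 was called, with a difference of -0.29 (limma adjusted p = 0.0316).

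Rps13 and Rps20, both of the small subunit, fell at 1 of their 2 probes. The Rps13 probe at chr7:123475037-123475096 (mm9, minus strand) gave 17.10, 16.94, 17.01 and 16.99 in B6. It gave 16.31, 16.46, 16.52 and 16.46 in BTBR. The difference was -0.57 ± 0.07 (SE, n = 4 per strain, limma adjusted p = 0.000873), while the probe that lies 16 bases upstream differed by 0.09 and was not called. The contrast between these neighbors was called (limma adjusted p = 0.000595). The rank product did not call Rps13 (pfp 0.0667), nor did limma on the median of its probes (adjusted p = 0.0872). The Rps20 probe at chr4:3758777-3758836 (mm9, minus strand) gave 10.23, 10.11, 9.89 and 10.02 in B6. It gave 9.57, 9.46, 9.68 and 9.72 in BTBR. The difference was -0.45 ± 0.09 (limma adjusted p = 0.016), and its other probe differed by 0.03. The Rps20 call was lost without B6 2 (limma adjusted p = 0.0552), with the rank product (pfp 0.179) and with the median of its probes (limma adjusted p = 0.108).

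Rps9, a small subunit protein near the path of the mRNA, was the other member that rose. Its probe at chr7:3657509-3657656 (mm9, plus strand) spans 148 genomic bases with 60 bases of sequence and is annotated to an Ensembl transcript. It gave 9.54, 9.48, 9.58 and 9.65 in B6. It gave 10.01, 10.13, 9.89 and 10.05 in BTBR. The strains did not overlap, with a difference of 0.46 ± 0.07 (SE, n = 4 per strain, limma adjusted p = 0.0042), which the rank product did not call (pfp 0.136). The second Rps9 probe differed in the same direction by 0.20 ± 0.08 (limma adjusted p = 0.207), and the contrast of the 2 probes was not called (limma adjusted p = 0.128).

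**Figure D2:**
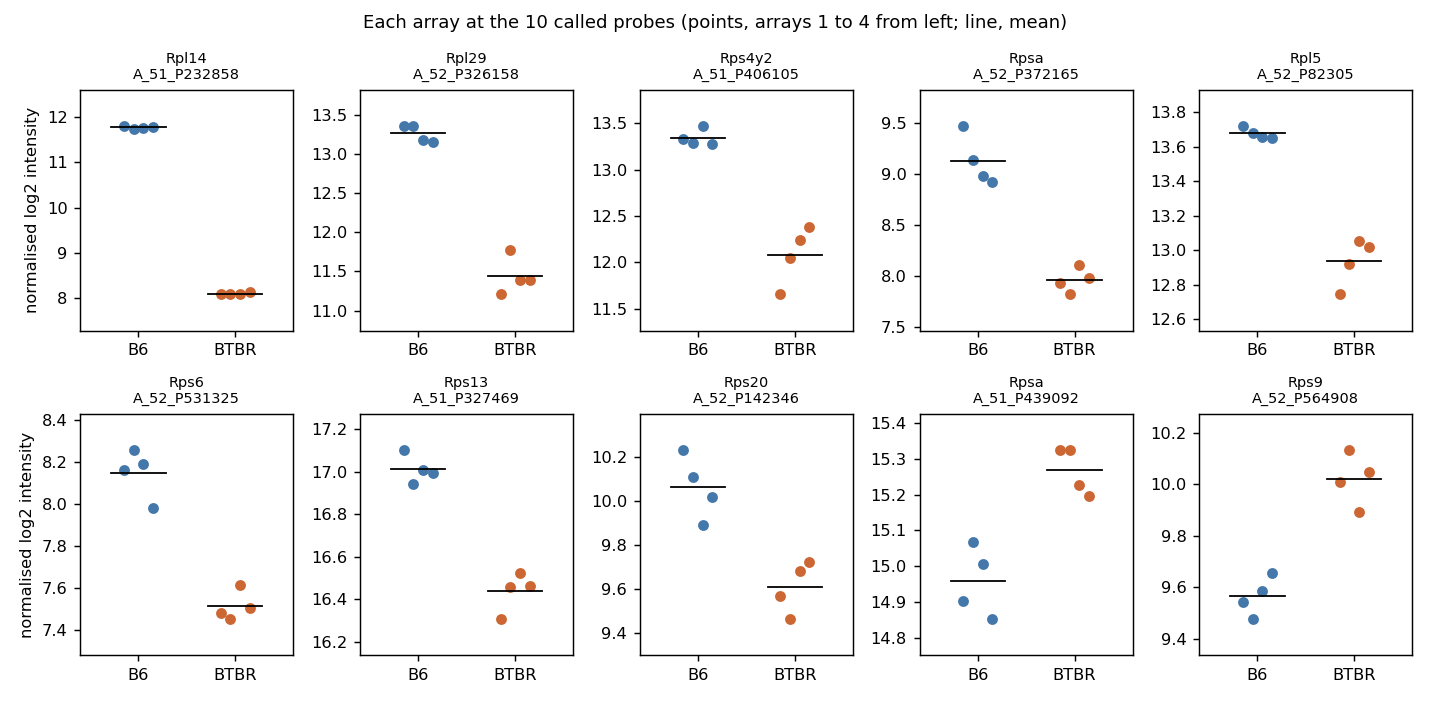
Normalized log2 intensity of each array at the 10 called ribosomal protein probes, with B6 and BTBR as points in order of array number and their mean as a line. The axes are scaled to each probe and do not start at 0. No BTBR point overlaps the B6 points in any panel, and Rpl14 has the widest gap.

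The exact two-sided permutation test over the 8 arrays gives 0.0286, the smallest value that 4 against 4 allows, at every probe whose strains do not overlap, called or not. All 10 called probes had the same sign on both slides, and the strain by slide interaction was called at 0 of the 138 probes and at 0 of all tested probes (limma). At an unadjusted p under 0.05 the interaction was found at 3 of the 138 and at 2765 of all tested probes. With the processed signal of the software, the difference at Rpl14 was -5.11, and with the deposited matrix it was -3.10.

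Disagreement between probes of 1 gene could be examined in 44 genes with 2 or more tested probes (100 probes). In 32 of the 44 genes (72.7%) the differences of all probes lay within 0.25 of each other, against 75.8% of 6673 genes on the array. Each probe was then tested against the mean of the gene's other probes with limma. This contrast was called at 14 probes of 7 genes (14%, against 9.39% of 16256 probes of all such genes), where a gene with 2 probes counts both. The genes were Rpl29, Rpsa, Rps13, Rpl5, Rps6, Rps20 and Rpl22. Rpl22, a large subunit protein known for binding structured RNA, is the gene of this group without a called probe. Its probes differed by 0.15 and -0.26 (limma adjusted p = 0.423 and 0.101), and the contrast between them was called narrowly (limma adjusted p = 0.0463). The second Rpl22 probe was called when BTBR 4 was left out (limma adjusted p = 0.0487). The contrasts of Rpsa and Rps6 each rest on a probe that passed the filter through B6 alone. When only probes above background on all 8 arrays were tested, which left out both, 8 of 132 probes of the family were called between the strains (6.06%, against 7.37% of 22829 probes), 2 higher (3.29% of all) and 6 lower (4.08% of all). The contrast was then called at 10 of 90 probes, of 5 genes, against 9.67% of 13034 probes.

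**Figure D3:**
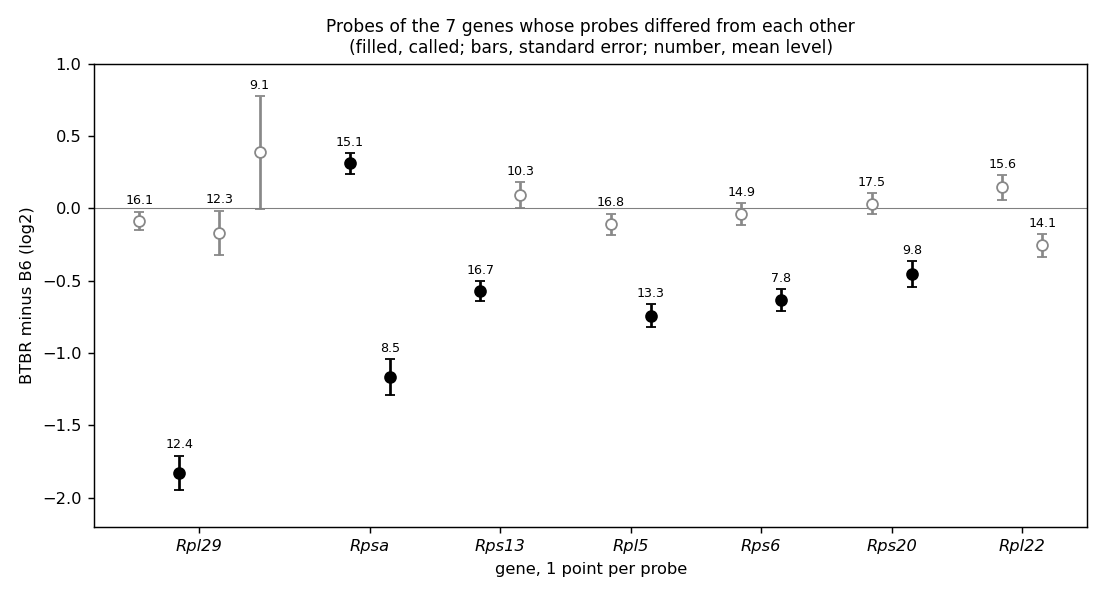
Strain difference (BTBR minus B6, log2, with its standard error from limma) of every tested probe of the 7 genes whose probes differed from each other, with filled points for called probes and the mean level printed above each. In 6 of the genes a called probe stands beside a probe nearer to 0 or of the opposite sign.

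Members with named roles elsewhere in the ribosome were counted beside the 7.67% of all tested probes that were called, and these lists are short. Rplp0, Rplp1 and Rplp2 form the stalk that recruits elongation factors, and 0 of the 6 probes of the stalk list were called. Rplp0 had 3 probes with differences of 0.03, -0.09 and 0.01, Rplp1 had -0.19 ± 0.13 and Rplp2 had 0.03 ± 0.06 (SE, n = 4 per strain). Around the polypeptide exit 0 of 15 probes were called, and around the decoding site and mRNA channel 1 of 13, the probe of Rps9. Of 30 probes for genes mutated in Diamond-Blackfan anemia, an inherited failure of red cell production, 1 was called, that of Rpl5. Rps19, the gene most often mutated in it, differed by -0.0046 and 0.0034. Rps27a, made as a fusion with ubiquitin, differed by 0.20 ± 0.09 (limma adjusted p = 0.307) and Rpl41, the smallest ribosomal protein, by 0.02 ± 0.07 (limma adjusted p = 0.92).

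Among the paralogs, Rps27l, a p53 target related to Rps27, gave 13.68, 13.62, 13.73 and 13.73 in B6 and 13.80, 13.98, 14.02 and 13.83 in BTBR. The strains did not overlap, yet the difference of 0.22 ± 0.07 (SE, n = 4 per strain) was not called (limma adjusted p = 0.122). Rpl22l1 differed by -0.05 and -0.16, Rpl7l1 by 0.11 and -0.04, and Rpl3l, a paralog of striated muscle that was above background on 3 of 4 arrays of each strain, by 0.05. None of the 6 probes of these paralogs was called by limma, and no probe named Rpl10l or Rps4l was on the list of gene names used here. Rps4l is on the array under the name Rps4y2, and that probe, described above, was called.

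By subunit, 7 of 57 probes of the small subunit were called (12.3%) and 3 of 81 of the large subunit (3.7%), beside 7.67% of all tested probes. The 7 include the pseudogene probe and the lower Rpsa and second Rps6 probes. Among probes above background on all 8 arrays, 5 of 53 (9.43%) and 3 of 79 (3.8%) were called. The median difference was 0.03 for the small and 0.00 for the large subunit. Fau and Rpl36al, ribosomal protein genes that the name rule leaves out, were not called either. Fau, a fusion that yields the small subunit protein eS30, differed by 0.06 and Rpl36al by 0.11. Gnb2l1, which encodes the small subunit scaffold Rack1, differed by -0.04 and 0.04.

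Genes around the ribosome were followed in 4 further lists. Of translation factors with TOP mRNAs, 23 genes were tested and 3 of 43 probes were called (6.98%), with 1 gene higher and 1 lower. Eif4b, a factor of mRNA unwinding, was higher at 1 of its 3 probes by 0.55 ± 0.11 (SE, n = 4 per strain, limma adjusted p = 0.0151). Ybx1, an mRNA-binding protein, was lower at 2 of 5 probes, by -0.60 and -0.25 (limma adjusted p = 0.000988 and 0.0477). Of the regulators of mTOR and of ribosomal protein transcription, 3 of 56 probes (26 genes) were called (5.36%). These were Sp1, a transcription factor, at 0.74 ± 0.09, Larp1, the TOP mRNA repressor, at -0.64 ± 0.09 at 1 of 5 probes, and Tsc2, an inhibitor of mTOR complex 1, at -0.38 ± 0.10 (limma adjusted p = 0.00105, 0.00213 and 0.0487). Both lists held calls in both directions. With 3 calls in each, their shares were not tested against the 7.67% of all tested probes and are not read as lower.

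Ribosome biogenesis held the largest differences among these lists. Of 173 probes (104 genes), 10 were called (5.78%, beside 7.67% of all tested probes), with 4 genes higher and 5 lower in BTBR. Rrp7a, a small subunit assembly factor, had a level of 14.22 ± 0.08 in B6 and 8.23 ± 0.18 in BTBR (SD, n = 4) at 1 of its 2 probes. The difference was -5.99 ± 0.10 (SE, limma adjusted p = 3.6e-09), and the other probe differed by 0.07 (limma adjusted p = 0.837). Pop4, a subunit of RNase P and RNase MRP, fell at both probes, with differences of -4.62 and -1.27 (limma adjusted p = 2e-09 and 3.2e-06). Nip7, a factor of large subunit assembly, had no BTBR array well above background at its called probe, which passed the filter through B6 alone. With the same kind of floor as for Rps6, B6 was 1.51-fold higher on the scale used here. The other Nip7 probe differed by -0.05.

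Mitochondrial ribosomal proteins form a separate ribosome that translates the mRNAs of the mitochondrial genome. Of 123 probes (76 genes), 12 were called (9.76%, beside 7.67% of all tested probes), with 6 genes higher, 5 lower and Mrpl3 counted in both. Mrpl47 differed by -1.74 ± 0.07 at 1 of 2 probes (SE, n = 4 per strain, limma adjusted p = 1.1e-06). Mrpl3 had 4 probes with differences of 0.60, 0.0029, -0.34 and -1.33, of which 3 were called. Mrps15 was higher at 1 of 2 probes by 0.43 ± 0.05 (limma adjusted p = 0.00104). Mrpl41, used in the study as the standard of its qRT-PCR, differed by -0.12 ± 0.05 and 0.04 ± 0.10 (limma adjusted p = 0.273 and 0.872), and neither probe was called.

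**Figure D4:**
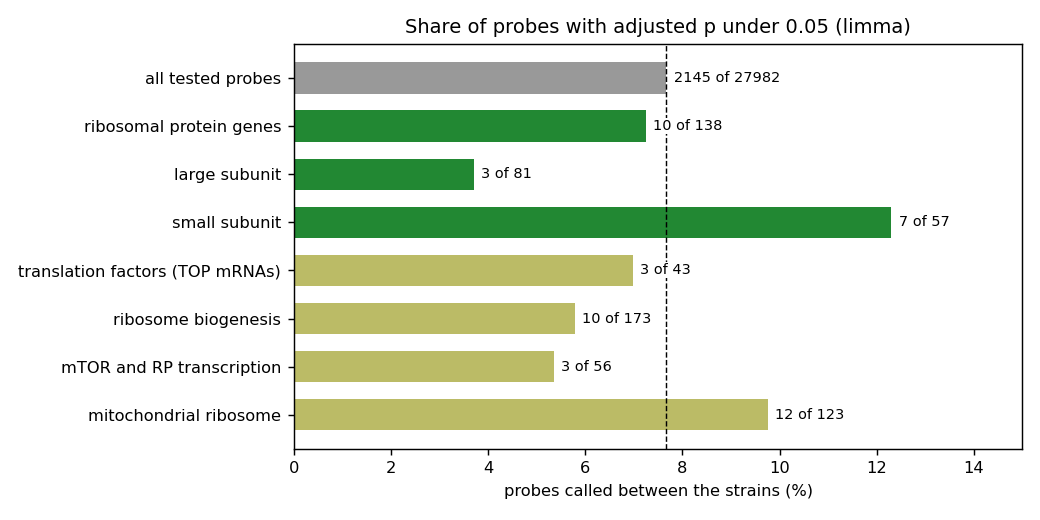
Share of tested probes with a limma adjusted p under 0.05 in the ribosomal protein genes, their subunits and 4 lists of related genes, with the number of probes called of those tested and a dashed line at the share of all tested probes. The family lies at 7.25% beside 7.67% for all tested probes, and the small subunit lies at 12.3%, or at 9.43% among probes above background on all 8 arrays (mitochondrial ribosomal proteins 10.2%).

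The widest spread within a strain was at a probe that was not called. This probe, of the large subunit protein Rpl30, gave 10.25, 12.92, 12.18 and 13.15 in B6 and 11.83, 13.16, 8.84 and 12.83 in BTBR. The strains overlapped widely, with a difference of -0.46 ± 0.98 (SE, n = 4 per strain, limma adjusted p = 0.86). At this probe, at the Rpl39 probe and at 1 Rpl10 probe the lowest array of each strain was B6 1 and BTBR 3. These are also the arrays with the smallest share of probes above background, 56.8% and 61.9%, against 67.6% to 71.9% on the others. Both arrays were lowest of their strain at 12 of 138 probes of the family (8.7%), against 14.3% of all tested probes. With both arrays left out, the difference at the Rpl30 probe was -0.15 ± 0.38 (limma adjusted p = 0.881). In that fit 8 of the 138 probes were called, all of them among the 10, and the higher Rpsa probe and Rps20 were the calls lost (limma adjusted p = 0.0996 and 0.0537). The share of all tested probes called in that fit is not given here.

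**Figure D5:**
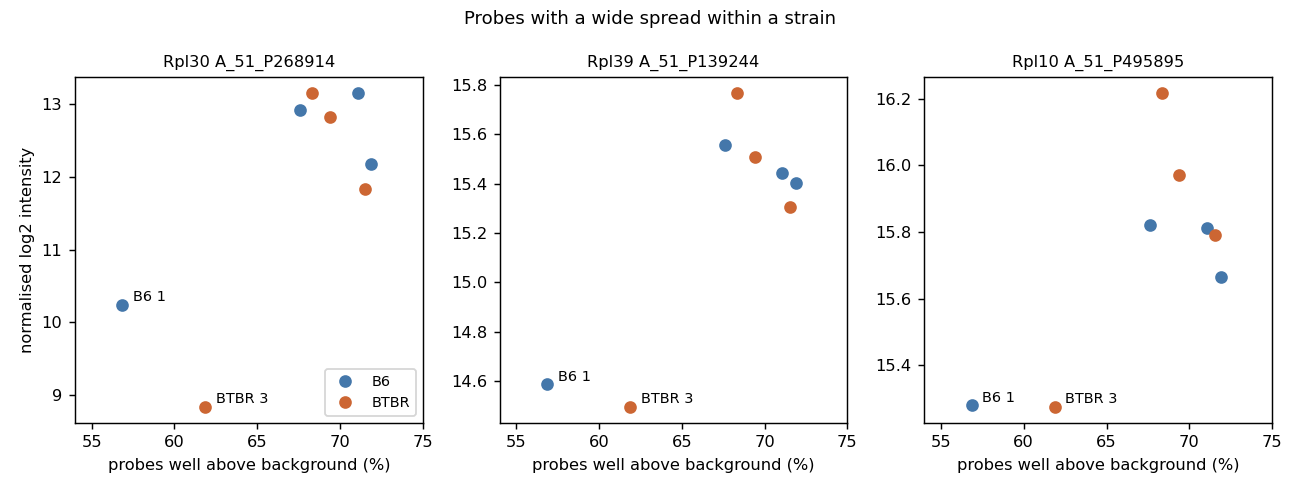
Normalized log2 intensity of 3 ribosomal protein probes on each array against the percentage of probes well above background on that array, with B6 and BTBR as colors. In each panel B6 1 and BTBR 3 lie lowest in their strain and farthest left in their strain. The vertical axes do not start at 0.

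The tissue was checked with marker genes. All 16 listed genes of hippocampal neurons were tested and 0 of their 22 probes were called. Of other cell types, 3 of 16 astrocyte probes, all of Gfap, and 2 of 12 microglia probes were called, and 0 probes of oligodendrocytes, choroid plexus, thalamus, pituitary, meninges or blood. The median difference was -0.28 over the neuron, -0.24 over the astrocyte, -0.046 over the microglia, 0.44 over the choroid plexus, 0.86 over the thalamus and 0.68 over the pituitary probes. The log2 of the summed signal, with 1 probe per gene, ranged from 13.43 to 13.77 in B6 and from 13.67 to 16.48 in BTBR for the 7 thalamus genes. For the 7 microglia genes it ranged from 15.05 to 15.14 in B6 and from 15.22 to 15.51 in BTBR, without overlap. In such a sum the brightest probes weigh most, and of the 2 called microglia probes 1 was higher and 1 lower in BTBR. For the 16 neuron genes it was 19.26 to 19.35 and 19.12 to 19.34. The part of such cells in the differences above was not tested. In whole tissue, fewer cells of a type and less RNA per cell cannot be told apart.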

How the data were processed

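Hippocampal RNA of 4 B6 and 4 BTBR mice was measured on 1 array per mouse, and title, source and genotype in the labels set the strain (the background field reads C57BL/6J for every sample). The intensity values were deposited by the authors unscaled between arrays. The reading software was Feature Extraction of Agilent, 10.7.3.1 by the file headers and 9.1 by the submitters' processing notes. The log2 matrix, which the authors had background subtracted and quantile normalized, served as an alternative. Probe coordinates are those of mm9 in the file headers. The share of probes well above background, 56.8% to 71.9% per array, and the number of arrays limit the precision.

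Mean intensity minus median local background was given a minimum of 0.5 and an offset of 50, taken to log2 and quantile normalized. Spots with an outlier flag were masked, replicate spots summarized by their median, and 154 probes with no unflagged spot on some array left out. The filter left 27982 probes that were well above background on 75% of the arrays of a strain. Strain was fitted with limma 3.58.1 (R 4.3.3), and an adjusted p (Benjamini-Hochberg) under 0.05 was a call. The rank product used 100 permutations and a pfp of 0.05. The fits were tested on simulated data. Tables were made with Python 3.11.15, NumPy 2.4.6 and pandas 2.3.3, figures with matplotlib 3.10.9.

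Genes were named by a rule: called members, genes with disagreeing probes, paralogs, the stalk, Rpsa, Rpl5, Rpl11, Rps6, Rps19, Rps27a, Rpl41, members without a tested probe, related ribosomal genes and up to 3 called genes of each list. Rpl30, Rpl39 and Rpl10 were picked with their values in view. The members, lists and tests were chosen with earlier results of these data known. Alternatives were other signals, background corrections and scalings, other filters, flags kept, gene medians, each array left out, the replicate number or slide as a block, and a trended, robust limma fit. The qRT-PCR data were not analysed here. A few genes are not reported by name.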

Additional observations from a re-analysis of the deposited data

Results flagged for a closer look

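At 38 probes named above, the 4 values of each strain were examined for a single array far from the others, and 7 of 76 groups passed Dixon's 95% critical value for 4 samples, where chance gives about 1 in 20. In the stalk, B6 1 gave 17.04 at a Rplp0 probe whose next value was 17.19, and BTBR 2 gave 15.89 at another Rplp0 probe, next to 16.00. B6 4 was lowest at the Rpl5 probe that was not called (16.74, next 16.89) and at Rpl22l1 probe A_51_P218814 (15.73, next 15.79). At the Rps13 probe that was not called, the highest arrays stood apart in both strains, B6 1 at 10.41 (next 10.17) and BTBR 4 at 10.49 (next 10.25). The widest gap was at Rpl29 probe A_52_P217069, where BTBR 3 gave 10.71 and the next BTBR array 8.95. None of these values belongs to a probe called between the strains by limma.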

How the results depend on the processing

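The number of ribosomal protein probes called was 8 to 10 under each change of signal, background, scaling, filter, flags, slide and empirical Bayes setting, and 9 to 11 with each array left out, against 10. Shares of all tested probes are given above for the filter on all 8 arrays, the rank product and gene medians. For the other settings they are not given, so these counts are not set against all probes. The rank product called 6, all of them among the 10, and left out both higher probes (Rps9, pfp 0.136, and Rpsa, pfp 0.481) as well as Rps13 (pfp 0.0667) and Rps20 (pfp 0.179). With gene medians, 7 of 82 genes were called, without Rps13 (-0.24, limma adjusted p = 0.0872) and Rps20 (-0.21, limma adjusted p = 0.108). The called medians of Rpsa and Rps6 each draw on a probe that passed the filter through B6 alone. Alternatives chosen after seeing the data gave 4 of 82 genes with the brightest probe of each gene (4.88%, against 7.9% of all gene names) and 8 probes without B6 1 and BTBR 3. The median difference was -0.034 with median centring, where the median of all probes was -0.011, and ranged from -0.018 to 0.028 with each array left out. Disagreement between probes was called at 10 to 14 probes of 5 to 7 genes under other settings. With each array left out it was called at 11 to 16 probes of 6 or 7 genes. Where a gene median was called, its sign was opposite to that of 2 of the examined probes, the higher Rpsa probe (-0.43, limma adjusted p = 0.00802) and the Rpl29 probe that rested on BTBR 3 (-0.997, limma adjusted p = 0.00106). The sign of the Rpsa median comes from the lower probe, which passed the filter through B6 alone, so its call is no separate evidence. Uncalled probes also had the opposite sign to their gene's uncalled median, among them 1 probe each of Rpl11, Rpl22, Rps13 and Rps20. The higher Rpsa probe was also not called with the processed signal, median centring, the rank product or the replicate number as a block. Whether the replicate numbers pair the mice was not settled, and the main fit used no pairing. Deviations of same-numbered arrays correlated at -0.14, 0.51, -0.10 and 0.39. Those of B6 and BTBR arrays with different numbers correlated at -0.50 to 0.37. With the replicate block 8 probes were called, without the higher Rpsa probe and Rps20. With each array left out, the called probes other than the higher Rpsa probe and Rps20 were called every time. The cause of these shifts was not tested. Signal over background limits the values of the lower Rpsa probe and of the second Rps6 probe.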

Other observations

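Around some called members other genes were called often as well. Within 1 Mb of the Rpl14 probe, 8 of 31 tested probes of other genes were called (25.8%), within 1 Mb of the Rpl29 probe 15 of 47 (31.9%), and within 1 Mb of the second Rps6 probe 6 of 19 (31.6%), where all tested probes gave 7.67%. Around the Rps20 probe it was 0 of 17, and around the Rpl5 probe 2 of 44 (4.55%). Rpl14 and Rpsa lie near each other on chromosome 9, and each is among the called neighbors of the other. Chromosome 9 held 4 of the 10 called probes (Rpl14, Rpl29 and both of Rpsa) among 13 tested ribosomal protein probes, and 10.3% of all its tested probes were called. Of the 4, the lower Rpsa probe passed the filter through B6 alone. These windows were chosen after the values were seen, and no test was made. By accession, 6 of 116 probes with a RefSeq mRNA accession were called (5.17%) and 4 of 22 probes with another accession (18.2%). The 6 include the lower Rpsa probe and the 4 the second Rps6 probe, which both passed the filter through B6 alone. The 4 also include the pseudogene probe. Shares of all tested probes by kind of accession are not given here, so these 2 shares are not read as a trait of the family. The mapped chromosome of 2 probes, of Rps27 and Rps29, was not that of the RefSeq gene, and 3 further probes carry no coordinates.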
